A study of Nicotiana tabacum with 9 samples.

Results

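NtZFP8, a C2H2 zinc finger protein of tobacco, was tested for binding to tobacco DNA against a nuclear-targeted GFP in DNA affinity purification sequencing (DAP-seq). The members described here are the 15013 peaks of the deposited NtZFP8 list that lay on nuclear scaffolds with a peak shape score above 2. They are accompanied by the 754 genes that the authors' gene table ties to a peak past the same score. They were taken from 20715 listed nuclear peaks, of which 72.5% passed the criterion, and from 974 listed genes, of which 77.4% passed. The members were chosen by this score, a measured value of the same comparison, so nothing is read from either share and no test is given. Over the whole series, with the snapdragon protein AmMIXTA included, the lists held 50154 peaks and 1884 genes.

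The NtZFP8 group comprised 3 libraries of Halo-tagged NtZFP8, and the GFP group comprised 3 libraries of Halo-tagged GFP, the negative control. All 6 used DNA from leaf primordia of wild-type Nicotiana tabacum, cultivar Petit Havana SR1, and the replicates came from separate plants and separate protein expressions. The DNA was sonicated for 20 min, and 1000 ng was kept for 1 h at 25 °C with a protein made in wheat germ extract and held on 20 µl of beads. Bound DNA was eluted at 98 °C, and AmMIXTA libraries (n = 3) were handled in the same way with the same GFP controls. The DNA was naked and sheared and the proteins came from a cell-free extract, so the assay shows what the protein can hold in a tube and carries no chromatin, partner proteins or expression. DNA has no cell type markers, so the labelled tissue could not be checked from the lists. The scores and p-values were computed by the authors, 1 per peak for the 3 replicates together. No value per library was given in the lists, so no spread between replicates can be stated, and the read depth is unknown.

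C2H2 zinc finger proteins fold short loops around a zinc ion, and these fingers read DNA bases. In plants many members of this family act in organ patterning, stress responses and the growth of epidermal hairs. Glandular trichomes are epidermal hairs that make and secrete resins and other specialised metabolites, and they arise on leaf primordia, the tissue whose DNA was used here. Tobacco is an allotetraploid, so many of its genes exist as a pair of near-identical copies, and reads from such copies can be hard to place.

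The peaks past the criterion ranged in score from 2.01 to 25.53, with a median of 3.09, quartiles of 2.40 and 4.60, and a 90th percentile of 7.81. Scores of 2 to 3 made up 7185 peaks (47.9%), 3 to 5 another 4551, 5 to 10 another 2400, and scores above 10 the remaining 877 (5.84%). On either side of the criterion there were 1435 nuclear peaks from 1.90 to 2.00 and 1153 from 2.01 to 2.10, and the 139 peaks at exactly 2.00 were not counted as past it. Just inside, at 2.01, stood actin-depolymerizing factor 7-like (LOC107823472) and ATP synthase subunit a (LOC107769558), and at 2.02 serine/threonine-protein kinase 38-like (LOC107822522). Just outside, at 2.00, stood la-related protein 6B-like (LOC107760745), pyruvate kinase isozyme G (LOC107783505) and YLS9-like (LOC107801215).

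**Figure D1:**
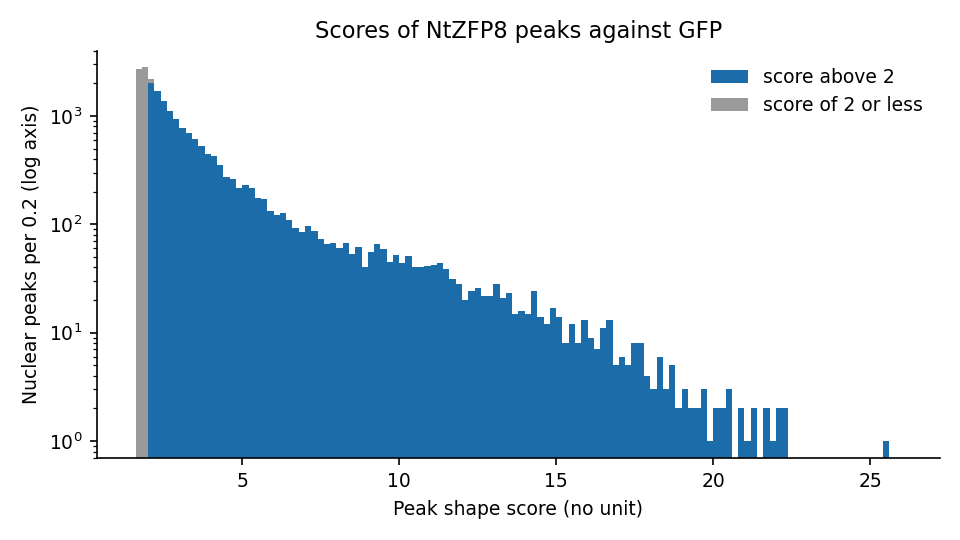
Histogram of the peak shape scores of all 20715 listed nuclear NtZFP8 peaks against GFP, with the score (no unit) on the x axis and peaks per 0.2 of score on a logarithmic y axis. Blue bars are the 15013 peaks above 2, grey bars those at 2 or less, and the highest peak stands alone at 25.53.

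Peaks were narrow, with a median width of 286 bp (quartiles 261 and 305, range 111 to 416). They lay on 10345 scaffolds, of which 8069 carried 1 peak, 2095 carried 2 to 5 and 181 carried more than 5. The 181 crowded scaffolds held 1821 peaks (12.1%), and the most crowded, NW_015822300.1, held 30 with a median score of 5.32. Another NtZFP8 peak past the criterion had its centre within 1000 bp at 4065 peaks (27.1%, 95% Wilson interval 26.4 to 27.8, counting error only). This share was 19.5% at scores of 2 to 3, 27.7% at 3 to 5, 42.4% at 5 to 10 and 43.7% above 10. Higher peaks thus more often had a close neighbour, although neighbouring peaks share DNA fragments and are not independent points. The smallest distance between centres was 300 bp, and only 494 peaks had a neighbour within 400 bp.

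Few peaks were tied to a gene. The authors' gene table named 903 of the peaks (6.01%), with a median score of 3.28, while the other 14110 had a median of 3.07. The named share was 5.43% at scores of 2 to 3 and 9.46% above 10. The highest peak of all (NW_015931517.1, 1032 to 1316, score 25.53) had no gene, and of the 30 highest peaks only 3 had a gene. The genes below therefore describe the part of the binding that the authors assigned, by a rule that the sources used here do not give. Gene positions on this scaffold set were not used here, so a peak's place in a promoter, exon or intron is not stated, and no peak sequence is printed.

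Of the 754 genes, 518 had a description of function, 229 were named uncharacterized and 7 had no description. Their highest peaks had a median score of 3.54 (quartiles 2.51 and 5.41). A score above 5 was reached by 223 genes, above 10 by 76 and above 15 by 23. Words in the descriptions placed 418 of the 518 described genes (80.7%) in a functional class. The other 100, of 128 listed (78.1%), matched no class and had a median of 3.27, with 10 above 10. Their highest were YLS3-like (LOC107777080, 16.12), ylmG homolog 1-2 (LOC107774705, 15.94) and membralin-like (LOC107789575, 15.31). The described genes passed the criterion at 518 of 654 listed (79.2%), and the counts per class below can be set beside that share, from which nothing is read since the same score made it.

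The bound genes spread over many functions of the plant cell. Each gene was counted in the first class its words matched. Accidental matches stand in these counts, also among listed genes that did not pass. The peptide chain release factor subunit ERF3A-like (LOC107790262, 1.95), for example, is listed under transcription factors. The largest was protein kinases, receptors and phosphatases with 58 of 69 listed genes (84.1%). Enzymes of primary metabolism followed with 47 of 60 (78.3%), and ubiquitin, F-box and proteolysis genes with 38 of 43 (88.4%). RNA processing genes numbered 33 of 42 (78.6%) and photosynthesis and respiration genes 30 of 36 (83.3%). Transcription factors held 25 of 35 (71.4%), cell wall genes 25 of 29 (86.2%) and membrane transporters 23 of 31 (74.2%). Chromatin, replication and repair genes numbered 22 of 25 (88.0%). Vesicle traffic held 19 of 26 (73.1%), disease resistance 19 of 27 (70.4%), hormone genes 14 of 17 (82.4%) and lipid genes 12 of 14 (85.7%). Ribosomal and translation genes numbered 11 of 11 and cytoskeleton genes 10 of 12 (83.3%). The order of the classes thus largely followed how many of their genes were listed. Counted in every class it matched, a gene could enter several, and primary metabolism, whose words are broad, then came first with 171 genes against 58 kinase-class genes. With accidental matches removed, the kinase class had 46 genes and primary metabolism 45. Median scores per class stayed between 2.62, in redox and stress proteins, and 4.45, in hormone genes, among the 18 classes with 8 or more genes. Each of these classes held at least 2 genes above 5.

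**Figure D2:**
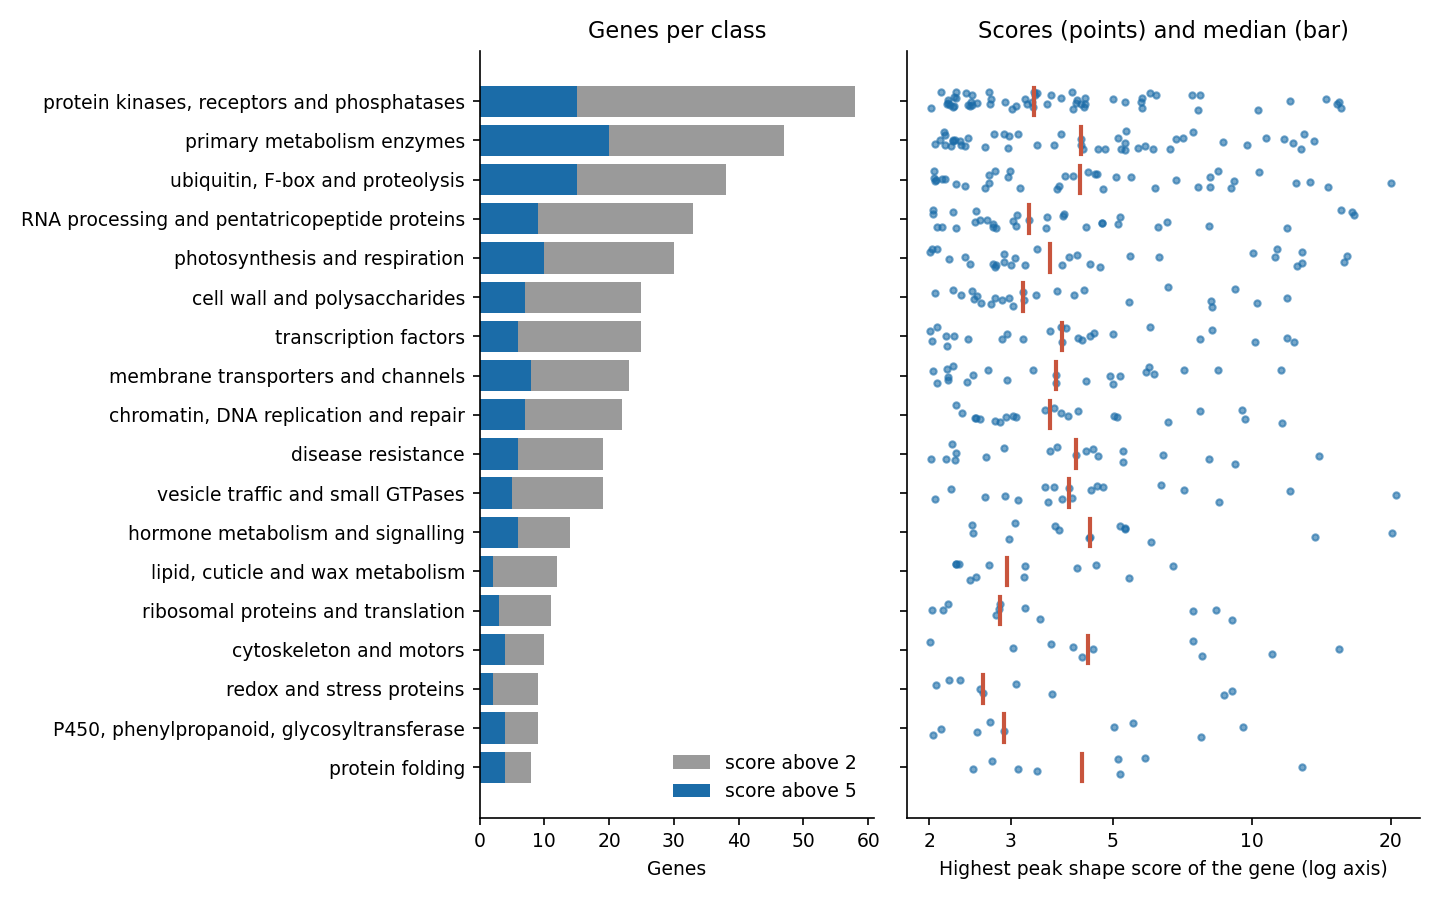
Left, number of NtZFP8 genes per functional class past the score of 2 (grey) and past 5 (blue), for classes with 8 or more genes. Right, the highest peak shape score of each gene (points, logarithmic axis) with the class median as a red bar: class medians lie between 2.62 and 4.45, and single genes reach 20.59.

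Signalling genes included calcium sensors, kinases and phosphatases. Calcineurin B-like protein 3 (LOC107819027), a calcium sensor that works with a family of protein kinases, had the highest score of the class, 15.63. EDR1-like (LOC107799674), a Raf-type kinase that restrains defence in Arabidopsis, had 15.27, and the leucine-rich repeat receptor-like kinase At1g35710 (LOC107760558) had 12.11. The nuclear inhibitor of protein phosphatase 1-like (LOC107814041) had 10.31. Protein phosphatases of type 2C, several of which switch off stress kinases, stood close together: the genes 2C 70-like, the kinase-PP2C fusion protein, 2C 58 and 2C 60 had 7.71, 7.64, 7.42 and 6.21, and 4 of the 6 listed genes of this kind passed. All 10 listed receptor-like kinases and receptor-like proteins passed, with a median of 3.40, and all 14 listed soluble serine/threonine kinases did, with a median of 2.96. Among the receptor-like genes, EFR (LOC107781183) and BAM2 (LOC107781185) shared a peak at 4.34. PERK6 (LOC107828864) shared its peak at 2.92 with RABG3f-like (LOC107828863). The 4 genes for phosphatase 7 long form homologs, each on its own scaffold, lay lower, from 2.28 to 3.85. Read 1 by 1 after their values were seen, 48 genes belonged here, since words such as kinase also caught fructokinase-7 (LOC107828739) and other metabolic enzymes.

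Protein breakdown genes included several of the highest scores. SKIP11-like (LOC107815441), an F-box protein of the kind that picks targets for ubiquitin ligases, had 20.0 at NW_015811032.1, 27339 to 27599. The 9 F-box genes had a median of only 2.99, and SKIP11-like was the sole member above 5. Proteases followed, with aspartic proteinase-like protein 2 (LOC107826537) at 14.65, protease Do-like 14 (LOC107824452) at 13.35 and xylem cysteine proteinase 1-like (LOC107804325) at 10.35. Ubiquitin-like protein 5 (LOC107827444) had 12.5 and a SUMO-activating enzyme subunit (LOC107767527), which starts the attachment of the small modifier SUMO, had 9.15. All 4 listed regulatory subunits of the 26S protease, the machine that degrades ubiquitin-tagged proteins, passed. They scored 7.64 and 5.07 for the pair described as 6A and 6.86 and 2.05 for the pair described as 6B, so genes with 1 description differed in score. Whether genes of 1 description are copies of each other was not examined.

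Among RNA genes, the G patch and ankyrin repeat gene (LOC107799652) had 16.7 and the pentatricopeptide repeat gene At2g21090-like (LOC107814362) had 16.49. Pentatricopeptide repeat proteins bind and edit organelle transcripts, and 12 of 13 listed genes passed. Apart from At2g21090-like, none exceeded 5, and the median was 2.88. La-related protein 1A-like (LOC107770309), of a family that controls messenger RNA translation and decay, had 5 peaks. Both genes for nuclear ribonuclease Z-like, which trims transfer RNA ends, passed 5, with 11.93 (LOC107790503) and 6.25 (LOC107806154). The splicing factor slt11-like (LOC107821025) had 8.08, and the RNA-binding pumilio homolog 5 (LOC107786023) had 6.55. The polymerase IV subunit 1-like gene (LOC107766126), for an enzyme of small RNA-guided silencing, had 5.18. Outside the words of the class, the KH domain gene At3g08620-like (LOC107805160) had 12.26.

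Enzymes of primary metabolism had the highest number of genes above 5, with 20 of 47. The first enzyme of the sugar chain for protein N-glycosylation, UDP-N-acetylglucosamine--dolichyl-phosphate N-acetylglucosaminephosphotransferase (LOC107777924), had 12.95. Trehalose-phosphate synthase 9 (LOC107799906), of a sugar-signalling family, had 12.78, copper methylamine oxidase-like (LOC107778057) 12.28 and alkaline/neutral invertase B (LOC107814301), which splits sucrose, 11.76. Nudix hydrolase 16 (LOC107813941) had 10.76, and beta-amylase 3 (LOC107826071), which breaks down starch in plastids, had 8.68. Lower members came from several routes, among them purine synthesis with phosphoribosylformylglycinamidine synthase (LOC107771670, 7.11), chlorophyll precursors with glutamate-1-semialdehyde aminomutase (LOC107826543, 6.85), plastid pyruvate dehydrogenase (LOC107797637, 6.64) and tryptophan synthesis with anthranilate phosphoribosyltransferase (LOC107830591, 5.86). Isoleucine N-monooxygenase 1-like (LOC107809681, 13.62), the highest of the class by its words, is a cytochrome P450.

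Genes with the names of photosynthesis and respiration proteins made up 30 members. Cytochrome b-c1 complex subunit 7-2-like (LOC107816074), of the respiratory chain, had 16.06 and the epsilon chain of the chloroplast-type ATP synthase (LOC107816505) had 15.86. Rubisco activase 2 (LOC107798594), which keeps the carbon-fixing enzyme active, had 11.24. Many members, the epsilon chain included, bear names of proteins that the plastid or mitochondrial genome encodes, such as photosystem II D2 (LOC107808202, 12.84), the large chain of Rubisco (LOC107793518, 12.82), photosystem I A2 (LOC107796558, 12.54) and cytochrome b6 (LOC107769160, 11.33). Over all classes, 37 of 40 listed genes of this organelle type passed on nuclear scaffolds, with 74 peaks and a median score of 3.22. Of these 37, 19 had 2 or more peaks. The same list held 196 peaks above 2 on the plastid and mitochondrial sequences themselves, and whether reads were placed between such copies was not tested. Descriptions naming the chloroplast covered 36 genes of 50 listed (median 3.64) and those naming the mitochondrion 50 of 56 (median 3.20), with members shared between these word lists and the classes. Ribosomal and translation genes were led by plastid ribosomal protein L6 (LOC107803875, 9.06) and elongation factor 1-delta 1-like (LOC107812526, 8.35). The latter peak is tied to 3 genes, the others uncharacterized.

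Vesicle traffic held the described gene with the highest score. RABB1c-like (LOC107813663), a small GTPase of early secretory traffic, had 20.59 at NW_015806601.1, 104038 to 104353, and AmMIXTA, called against the same GFP libraries, had 25.92 at this gene. SEC8-like (LOC107791768), part of the exocyst complex that tethers secretory vesicles at the plasma membrane, had 12.09. The nuclear pore gene NUP85-like (LOC107825191) had 8.49 and importin-11-like (LOC107817701), a carrier into the nucleus, had 7.12. A step lower stood the sorting protein VPS20-like (LOC107793302, 6.35), the AP-1 adaptor subunit mu-2-like (LOC107799731, 4.75), syntaxin-71-like (LOC107786060, 4.63) and coatomer zeta-2-like (LOC107828257, 4.48). None of the 19 had more than 1 peak.

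Transporters were led by ABC transporter G family member 23-like (LOC107771139) with 11.55. Other members of this family export lipids and waxes, and this gene carries the mark ABCG in the authors' deposited table. All 4 listed plastid sugar and nucleotide carriers passed, and all 4 exceeded 5. The plastidic ATP/ADP transporters had 8.45 (LOC107830888) and 5.98 (LOC107792921), and the plastidic glucose transporters had 6.14 (LOC107803044) and 5.91 (LOC107770243). The peak at 5.91 is also tied to PLANT CADMIUM RESISTANCE 8-like (LOC107770242). The amino acid transporter ANTL1-like (LOC107831083) had 7.14 and the mitochondrial pyruvate carrier 4-like (LOC107803258) had 5.18. A pair of potassium efflux antiporter 4-like genes had 4.92 and 4.38.

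The 10 cytoskeleton genes had a median of 4.41, beside 3.67 over all described genes. Hormone, protein folding, primary metabolism and proteolysis genes had medians of 4.45, 4.28, 4.27 and 4.25, and no difference was tested. Kinesin-13A-like (LOC107815762), a microtubule motor that affects trichome branching in Arabidopsis, had 15.46. Its peak is also tied to an uncharacterized gene (LOC107815761). Tubulin-folding cofactor D-like (LOC107787597), which helps build tubulin dimers, had 11.04. The formins, which start actin filaments, had 7.80 for formin-like 14 (LOC107824924) and 4.53 for formin-like 3 (LOC107769254), and actin-related protein 4-like (LOC107818079), a nuclear relative of actin, had 7.44. Outside the class words, spastin-like (LOC107766094), which in animals severs microtubules, had 15.05. A pair of WLIM1-like genes, whose relatives bundle actin, had 5.11 and 4.46. With such genes added after their values were seen the class held 16 genes, from 2.01 to 15.46. The only listed cell cycle gene of 4 to pass was the spindle checkpoint gene BUBR1-like (LOC107799694, 7.10).

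Hormone genes covered making, moving, breaking down and sensing of hormones. Purine permease 3-like (LOC107788140) had 20.16 at NW_015915494.1, 25037 to 25333, and another gene of that description (LOC107804577) had 6.06 with 2 peaks. Purine permeases carry adenine and cytokinins. Cytokinin dehydrogenase 3-like (LOC107799019), which degrades cytokinins, had 4.44, and LOG8-like (LOC107784101), which releases the active form, had 3.07. The salicylic acid-binding protein 2-like pair (LOC107822429 and LOC107822430), esterases that release salicylic acid from its methyl ester in tobacco, shared their highest peak at 5.30. Of the jasmonate and gibberellin words 6 of 7 listed genes passed. Jasmonate genes were the receptor-type coronatine-insensitive 1-like (LOC107819687, 4.38), 12-oxophytodienoate reductase-like (LOC107817070, 3.82), jasmonate O-methyltransferase (LOC107813811, 3.75) and the repressor-type TIFY 6B-like (LOC107807057). Gibberellin 2-beta-dioxygenases, which inactivate the hormone, had 4.46 for 8-like (LOC107792401) and 2.47 for 2-like (LOC107770071). Outside the words of the hormone class, tryptophan aminotransferase-related 2-like (LOC107767293), of the auxin synthesis family, had 7.44. The methylenetetrahydrofolate reductase (LOC107832493, 13.7), matched by accident, is an enzyme of folate metabolism.

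**Figure D3:**
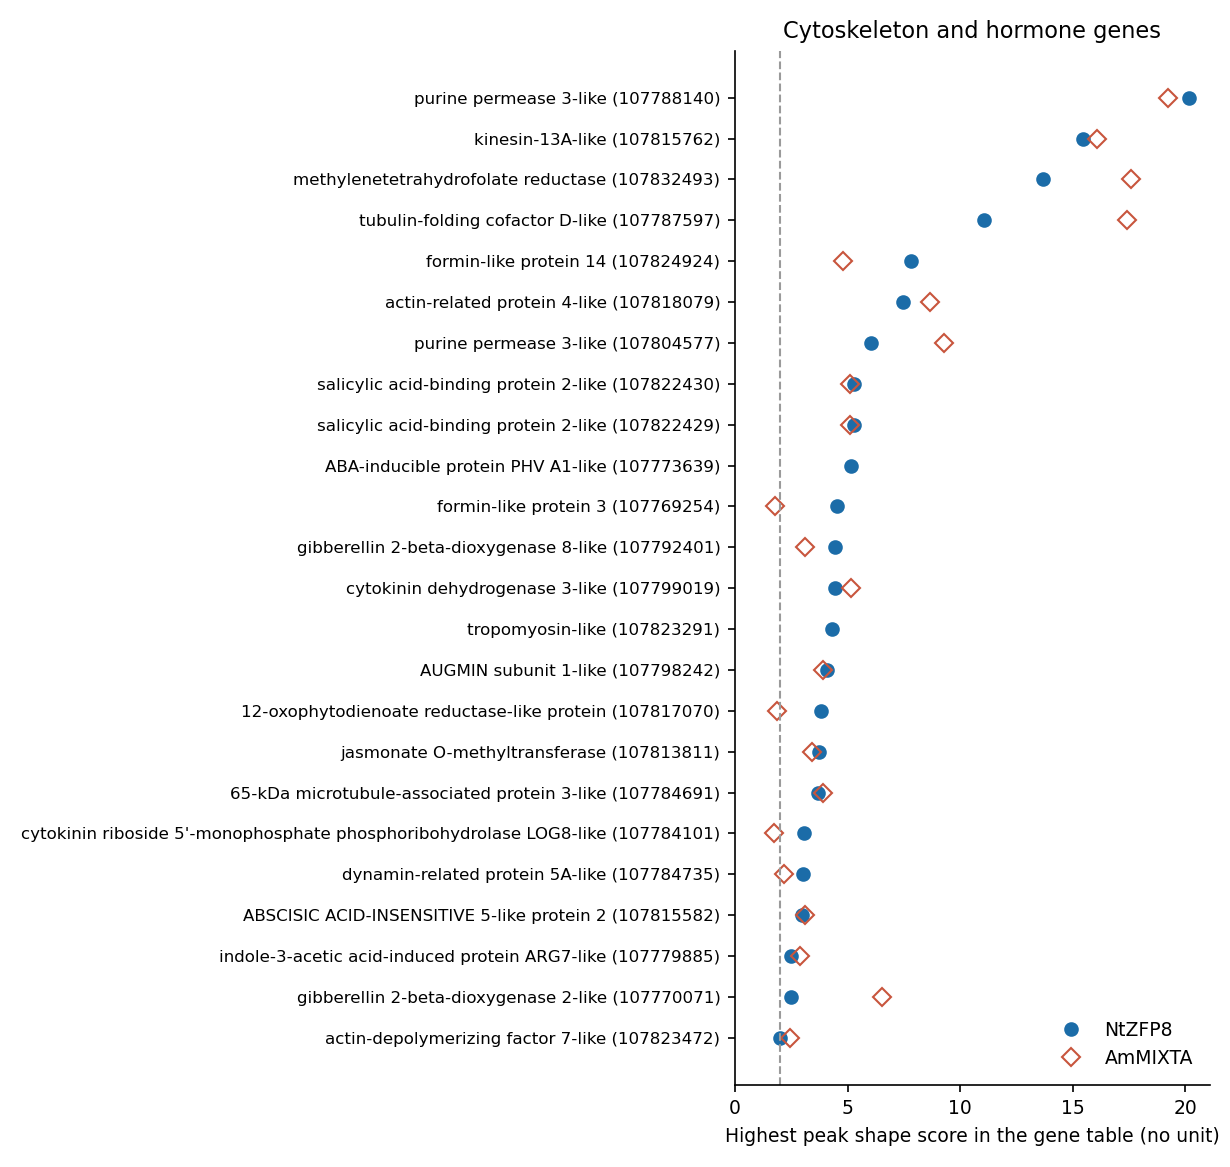
Highest peak shape score (x axis, no unit) of the genes in the cytoskeleton and hormone classes, by the class words, for NtZFP8 (filled circles) and, where listed, AmMIXTA (open diamonds), with the score of 2 as a dashed line; digits are the gene identifiers. NtZFP8 scores run from 2.01 to 20.16, and both proteins were called against the same GFP libraries.

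Cell wall genes had a median of 3.19. The highest were beta-galactosidase 9-like (LOC107766584) with 11.92 and a glucan endo-1,3-beta-D-glucosidase (LOC107793272), which cuts callose-type glucans, with 10.26. An arabinogalactan protein 18-like gene (LOC107779301) had 8.19 and beta-galactosidase 13-like (LOC107809181) had 6.58. All 6 listed pectin enzymes passed but only polygalacturonase-like (LOC107779415) exceeded 5, with 5.41. The trichome birefringence-like genes, which act in acetylation of wall polysaccharides, had 9.22, 8.16 and 3.04 for members 39, 19 and 33. The trichome and epidermis words found 6 of 7 listed genes, and the homeodomain gene GLABRA 2-like (LOC107819990, 7.72) was the only regulator of epidermal cells among them. The remaining pair, an epidermal growth factor receptor substrate (LOC107818289, 5.76) and a mitochondrial stomatin-like protein (LOC107818553, 5.01), matched only by their names.

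Lipid genes had a median of 2.95, and the highest of those found by the class words had 6.75 (non-specific lipid-transfer protein 1, LOC107812329). Phosphatidylserine decarboxylase 2-like (LOC107786650), of membrane lipid synthesis, had 4.18 and acyl-CoA--sterol O-acyltransferase 1-like (LOC107822145) had 3.21. The peroxisomal acyl-CoA synthetase 6 (LOC107780683, 3.22) is marked LACS in the authors' deposited table. GPI1-like (LOC107831959), which starts the glycolipid anchor of membrane proteins and matched the kinase class by its name, had 15.45. In specialised metabolism, UDP-glycosyltransferase 71K1-like (LOC107796811) had 9.58, anthocyanidin reductase-like (LOC107792951), of the tannin branch of flavonoids, 7.77, and flavonol 3-sulfotransferase-like (LOC107775088) 5.53. No gene found by the terpenoid pathway words passed, of 2 listed. Outside the words, hydroxymethylbutenyl diphosphate synthase (LOC107777497), of the plastid route to terpenoid precursors, had 2.75. Both genes placed in the terpenoid class by its broader words matched by accident.

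Chromatin genes were led by a mitochondrial recA homolog 2 (LOC107784664), a DNA recombination protein, with 11.63, while another gene of that description (LOC107798485) had 2.85. ALWAYS EARLY 3-like (LOC107784961), related to an animal regulator of cell cycle genes, had 9.65 and SYD-like (LOC107777060), a SWI2/SNF2 chromatin remodeller, had 9.52. MCM10 (LOC107809180), of replication start, had 6.58. The 4 listed histone lysine methyltransferases passed with close scores: ASHH1-like (LOC107777647) had 4.20, SUVH5-like (LOC107831800) 3.99, SUVR1 (LOC107760765) 3.85 and EZA1-like (LOC107769800) 3.04. Beyond the class words, transcription-associated protein 1 (LOC107801589) had 6.41 and the histone demethylase JMJ25-like (LOC107763131) had 3.78.

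Disease resistance genes included the late blight resistance homolog R1B-16 (LOC107769346), an intracellular immune receptor, with 13.99. Of 7 listed late blight homologs 6 passed, with a median of only 2.27. The 2 genes like TMV resistance protein N, an immune receptor against tobacco mosaic virus, lay on 1 scaffold and had 9.20 with 5 peaks (LOC107791816) and 8.07 with 2 peaks (LOC107791820). RGA3 and RGA1 shared 1 peak at 5.25. RPM1-interacting protein 4-like (LOC107776907), a guard target of immune receptors, had 4.53. Protein folding genes were led by the DnaJ protein GRV2-like (LOC107782199, 12.86), and redox genes by peroxiredoxin-2B-like (LOC107830577, 9.05) and aldehyde dehydrogenase 2B7 (LOC107794974, 8.71), which both detoxify reactive compounds.

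Transcription factor genes ran from 2.01 to 12.35 with a median of 3.87. MYB6-like (LOC107803458), JACKDAW-like (LOC107786831) and CONSTANS-LIKE 10-like (LOC107816562) were the 3 above 10, at 12.35, 11.95 and 10.14. AmMIXTA had 18.1, 20.82 and 6.55 at these genes. Next came bHLH101-like (LOC107828347) with 8.19 for NtZFP8 and 11.47 for AmMIXTA, and GLABRA 2-like with 7.72 and 9.19. JACKDAW-like, a root patterning zinc finger that the authors' deposited table marks by name, had 2 peaks, at 7.30 and 11.95 with centres 480 bp apart. Zinc finger words over all classes found 8 of 11 listed genes, with a median of 6.21, of which 4 exceeded 5. Only 4 of these 8 were in the transcription factor class, 2 of them above 5. The rest included a RING finger gene (LOC107774477, 11.62) and 2 CCCH zinc finger genes. NAC 76-like (LOC107831613) had 6.02 for NtZFP8 and 4.48 for AmMIXTA. YABBY 5-like (LOC107808962), of a leaf polarity family, had 5.0 for NtZFP8 and 3.57 for AmMIXTA. The MADS-box gene AGL66 (LOC107765071) had 4.54 for NtZFP8 and 5.29 for AmMIXTA. RAX3-like LOC107779404 had 3 NtZFP8 peaks, the highest at 4.45, and 3.84 for AmMIXTA. The other RAX3-like gene (LOC107789774) had 3.20 for NtZFP8 and 4.20 for AmMIXTA. Zinc finger MYM-type 1-like (LOC107784168) had 4.28 and 2.88, and dehydration-responsive element-binding 3-like (LOC107791342) 4.20 and 2.12, in that order. A ranBP2-type zinc finger gene (LOC107824418) had 3.66 for NtZFP8 and was not listed for AmMIXTA. The flowering gene SOC1-like (LOC107828738) had 3.96 for NtZFP8 and 3.30 for AmMIXTA, and squamosa promoter-binding-like 12 (LOC107822648), of a phase change family, had 3.86 for NtZFP8 and 3.76 for AmMIXTA. AGL66 and SOC1-like are marked AGL66 and SOC in the authors' deposited table. WRKY 40 (LOC107801001), TCP9-like (LOC107810370) and MADS-box 23-like (LOC107785927) passed for NtZFP8 at 2.94, 2.43 and 2.26 and stood under 2 for AmMIXTA, at 1.75, 1.81 and 1.70. The difference was not tested. Low scorers named by the rule were WRKY 40, both WRKY 4 genes, bHLH112-like, bHLH80-like and ERF113-like, from 2.01 to 2.94. For AmMIXTA the WRKY 4 genes had 3.06 and 3.18, bHLH112-like 3.05 and ERF113-like 2.94, while bHLH80-like was not listed.

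Read by hand after their values were seen, 9 more regulators belonged with the transcription factors and 1 member, a TFIIH helicase, did not, which made 33. Calmodulin-binding transcription activator 4-like (LOC107810996), which links calcium to gene expression, had 14.46, above every gene the class words found. Another gene of that description (LOC107761409) had 2.72. NLP7-like (LOC107766341), the nitrate-response factor that the authors' deposited table marks, had 4.14. The corepressor LEUNIG_HOMOLOG-like (LOC107769679) had 3.40, ABSCISIC ACID-INSENSITIVE 5-like 2 (LOC107815582) 2.98 and the clock gene LHY-like (LOC107775222) 2.41. The 3 FAR1-type genes, light-signalling factors of transposase origin that the words had put with transposable elements, had 2.43, 2.13 and 2.04. The authors' deposited table also marks AGL27 (LOC107764452) and LOC107793099, whose scores of 1.83 and 1.92 lay under the criterion.

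**Figure D4:**
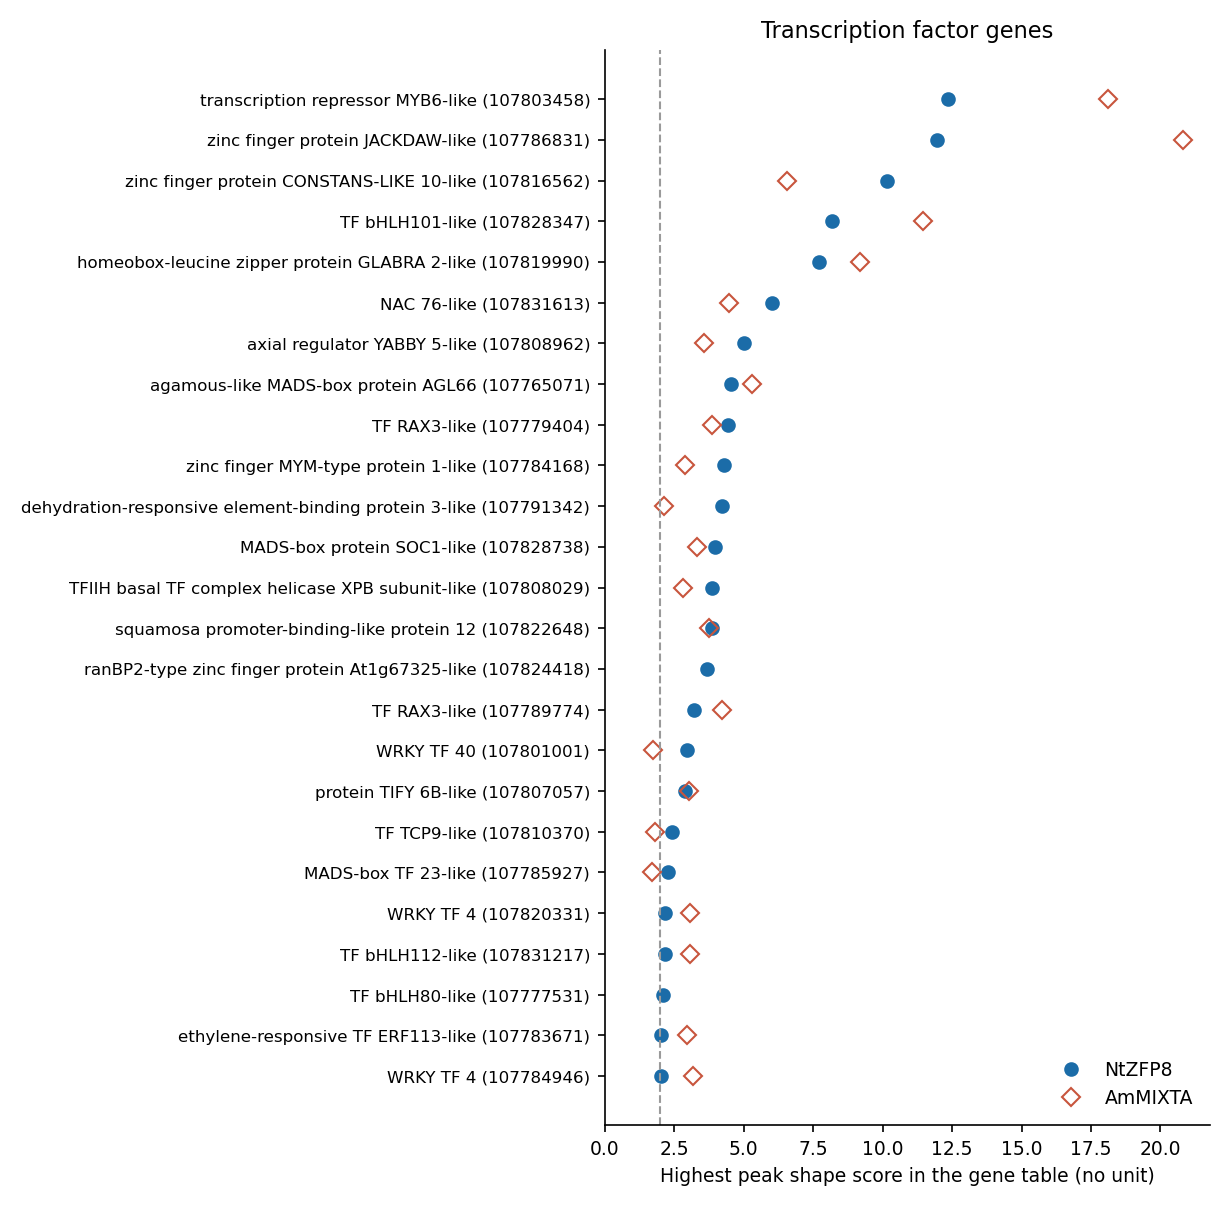
Highest peak shape score (x axis, no unit) at the 25 transcription factor genes past the criterion, for NtZFP8 (filled circles) and, where the gene is listed, AmMIXTA (open diamonds), with the score of 2 as a dashed line; digits are the gene identifiers. NtZFP8 scores run from 2.01 to 12.35, with 3 genes above 10, and both proteins share the GFP controls.

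Most genes had a single peak (656 of 754), while 98 had 2 or more and 32 had 3 or more. Among the described genes, 53 had 2 or more peaks. La-related protein 1A-like carried 5 peaks over 2088 bp, with scores of 9.47, 10.23, 15.59, 14.27 and 2.30 along the scaffold. Trichome birefringence-like 39 (LOC107797195) had 5 peaks over 2203 bp at 7.94, 6.96, 6.38, 5.26 and 9.22, so all of them exceeded 5. The immune receptor gene LOC107791816 had 5 peaks from 4.61 to 9.20 over 2536 bp. Cytochrome b-c1 subunit 7-2-like had 9.31, 12.78 and 16.06 over 1108 bp, and SYD-like had 5.22, 6.74 and 9.52 over 799 bp. These genes held several high peaks side by side. AmMIXTA, called against the same GFP libraries, had 3, 5, 3, 3 and 2 peaks above 2 at them, in the order named. The gene with the most peaks among described genes was cytochrome b6 with 6, from 6.38 to 11.33, and photosystem II D2 and NADH-ubiquinone oxidoreductase chain 4-like (LOC107785637) had 5 each. All 3 are organelle-type genes, and AmMIXTA had 6, 4 and 3 peaks above 2 at them.

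**Figure D5:**
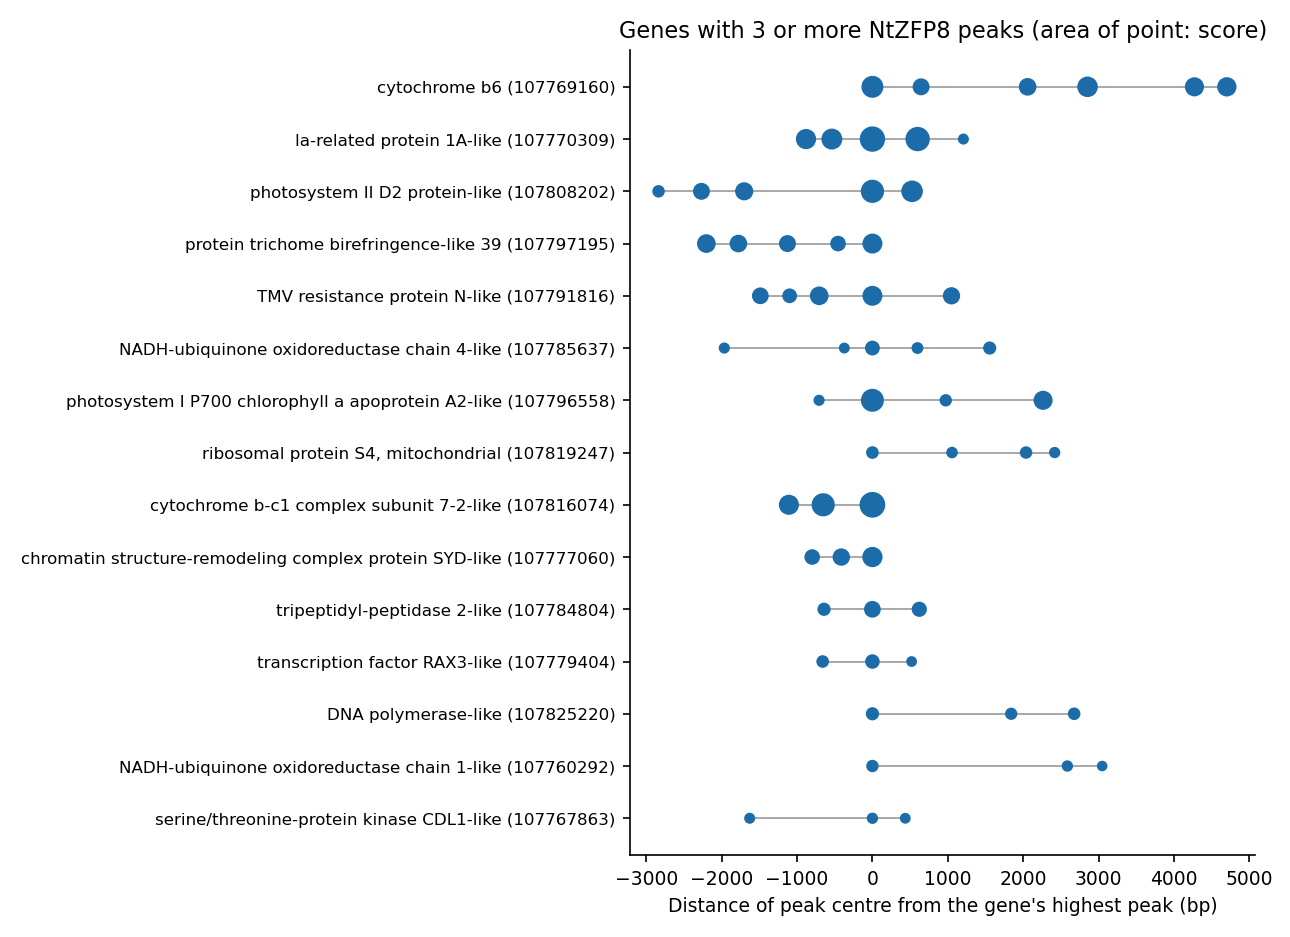
The 15 described genes with 3 or more NtZFP8 peaks past the criterion. Points are peaks, placed by distance in bp (x axis) from the gene's highest peak and with an area in proportion to the score; digits are gene identifiers. Cytochrome b6 has 6 peaks, the la-related gene has 5 within 2088 bp, and the SYD-like gene has 3 within 799 bp.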

How the data were processed

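DAP-seq lists of NtZFP8 against GFP (3 libraries each) were used as deposited. Per the series' design text, reads were mapped to the tobacco genome of Sierro and colleagues (98% mapped on average), and hits had a score above 2 and p under 0.05 against GFP. The sources used here do not give the aligner, the peak caller or how the replicates were merged.

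The deposited peak shape score has no unit and 2 decimals. The p-value the authors gave per peak differed from the normal tail of its score by at most 0.00543. Other deposited columns hold positions, which were counted from 1 on the scaffolds of the lists. Lists stop at a score of 1.64, and depth is unknown.

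Peaks with the criterion's score on nuclear scaffolds were kept, and genes took the highest score of their lines. Of the 94 genes without a description in the NtZFP8 table, 87 were filled from the AmMIXTA table, of which 61 gained a function. Genes were sorted into 21 classes and 7 word lists by patterns in the descriptions, first match counting, so accidental matches occur. Members and lists were chosen with earlier results of these data known. The score chose the members, so nothing was tested. Genes to name were drawn from the 20 described genes with the highest score, the 10 with most peaks and up to 6 per class. Transcription factors, trichome words, genes beside the criterion and the 5 highest undescribed genes were added. Not every gene so drawn is named in the text. Others were named after their values were seen. Not run: peak positions relative to genes, and sequence features, for which no genome of the build was used here. The counting functions were tested on simulated data. Python 3.11.15, pandas 2.3.3, scipy 1.17.1 and matplotlib 3.10.9 were used.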

Additional observations from a re-analysis of the deposited data

Results flagged for a closer look

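Signals outside the nuclear peaks and genes described above were flagged because they passed the same score. On the plastid and mitochondrial sequences the NtZFP8 list held 196 peaks above 2. The plastid sequence carried 117 of them, with a median score of 3.45 and a highest of 8.06, and the mitochondrial sequence carried 79, with a median of 2.68 and a highest of 10.08. A further list, which carries no protein name, stands in both deposited workbooks with 618 peaks, of which 447 had a score above 2. Of its 618 peak centres, 13 also occur in the NtZFP8 list and 7 in the AmMIXTA list. Which protein it belongs to was not tested.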

How the results depend on the processing

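With a score above 3, counts fell to 7828 nuclear peaks with a median score of 4.49, 452 genes, 315 described genes, 53 genes with 2 or more peaks and 259 genes in a named class. With all listed peaks the median score was 2.52, the median width 287 bp and the share with a neighbour within 1000 bp 28.6%. The median score was 2.99 without scaffolds carrying more than 5 peaks. The neighbour share was 9.62% within 500 bp and 36.1% within 2000 bp. A score of 2 or more, merged overlapping peaks, organelle sequences added, blank descriptions left blank or filled from the NtZFP8 table only, and regions past an end left out kept each count within 1.5 times and each median and share within its interval. So did leaving out organelle-type genes, chosen after seeing the data, which left 79 genes with 2 or more peaks. The intervals of the medians and the share treat peaks as independent points, which they are not, and hold no spread between replicates. The total in named classes was 556 with every matching class counted, where a gene can count more than once, and 413 with accidental matches removed. Single classes moved further: primary metabolism had 171 genes under the first, and under the second transposable element genes had 0 and terpenoid genes 1. Of the 21 classes, 5 stayed within 1.5 times with a score above 3, and 18 did with accidental matches removed and other words added, also chosen after seeing the data. Under that reading RNA processing, with 46 genes, took the second place after the 48 kinase genes. No paired analysis was possible because the lists hold no value per replicate, and for the same reason no replicate could be left out. Gene assignment covers 6.01% of the peaks, so the span by function rests on few of them.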

Other observations

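Some genes without a described function also had high scores, though under the 20.59 of the highest described gene. The 5 highest were LOC107779393 (17.79, 3 peaks), LOC107802020 (16.47), LOC107803124 (16.31), LOC107782682 (16.12) and LOC107799440 (15.74). The 229 uncharacterized genes had a median score of 3.40, and 45 of them had 2 or more peaks. LOC107778168 had the most of any gene, with 15 peaks over 7918 bp and scores from 2.06 to 7.19, and LOC107795990 followed with 9 peaks over 8435 bp.

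Some descriptions were shared by 2 or more of the genes past the criterion. There were 33 such descriptions over 70 genes, and in 7 of them every gene exceeded 5. Among these 7, the salicylic acid-binding protein 2-like genes owed their 5.30 to 1 shared peak. Craniofacial development protein 2-like had 14.09 (LOC107781153) and 5.93 (LOC107808567), while calmodulin-binding transcription activator 4-like had 14.46 and 2.72, and beta-galactosidase 9-like 11.92 and 2.25.

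The authors' table tied 31 peaks to 2 or more genes. Of the 15 whose genes are all placed in another tobacco assembly, ASM71507v2, the genes of 14 stand next to each other there. Examples are MCM10 with beta-galactosidase 13-like (6.58) and amino acid transporter ANTL1-like with thymocyte nuclear protein 1-like (7.14).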
